A study of Homo sapiens with 8 samples.

Results

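The genes described here are 35 transcripts of the NRF2 pathway, iron storage, glutathione synthesis and use, and the thioredoxin and peroxiredoxin systems. They were chosen by name, and all 35 of 35 were found among the 25369 genes of the deposited table. Each member had at least 0.5 RPKM (reads scaled to gene length and to the library's total) in all 8 libraries, so all 35 entered the test, which covered 11899 genes. The cells were EPC2-hTERT, normal-derived esophageal keratinocytes kept dividing by added telomerase. A stable line made with a lentiviral control short hairpin RNA (shCtrl, 4 libraries) was compared with a stable line carrying a hairpin against HIF1A (HIF1A-KD, 4 libraries). HIF1A encodes HIF-1 alpha, the part of HIF-1 that low oxygen stabilises, and the series' title asks how it relates to metabolism and differentiation in eosinophilic esophagitis. Both lines were grown to confluence for 2 days on membranes with 0.4 µm pores, kept in 1.8 mM calcium chloride for 5 days and exposed to air for 4 days, which lets keratinocytes stratify. The labels name a single line per hairpin and do not say that libraries came from separate cultures, so p-values measure the spread between these libraries, which may be technical. The treatment text also names DMSO and the hydroxylase inhibitor DMOG, without saying which libraries, if any, received them.

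NRF2, encoded by NFE2L2, is a transcription factor that is held in the cytoplasm and marked for degradation by KEAP1. When reactive compounds modify KEAP1, NRF2 escapes, pairs with small MAF proteins and binds antioxidant response elements near genes for detoxification, glutathione synthesis and thioredoxin recycling. Ferritin is a shell of heavy (FTH1) and light (FTL) chains that stores iron, and TFRC is the receptor that brings transferrin iron into the cell. Their mRNAs carry iron responsive elements, short hairpins bound by iron regulatory proteins that block ferritin translation and stabilise TFRC mRNA when iron is scarce. HMOX1 and TFRC are also known as targets of HIF-1.

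The iron responsive elements are shown because the ferritin light chain was the only member called in the paired fit. That call was lost when any of several single libraries was left out. The heavy chain carries almost the same element, and whether these elements bear on the mRNA levels was not tested. A search of GENCODE 29 transcripts (GRCh38) for a bulged C, a stem of 5 base pairs and the loop CAGTGN gave 1 match in the 5′ UTR of FTL, 1 in the 5′ UTR of FTH1 and 4 in the 3′ UTR of TFRC. Each is printed 5′ to 3′ with the loop in capitals, with the 2 ferritin elements first and then the first TFRC match. The FTL element is at chr19:48965337-48965361 (plus strand), the FTH1 element at chr11:61967576-61967600 (minus strand) and the TFRC element at chr3:196050981-196051005 (minus strand).
FTL: cttgcttcaaCAGTGTttggacgga
FTH1: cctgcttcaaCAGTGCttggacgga
TFRC: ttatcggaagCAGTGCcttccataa
The ferritin elements were identical at 23 of 25 bases.

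Antioxidant response element cores were looked for in RefSeq promoters (GRCh38.p14, 250 bases before to 50 after the gene start), which had an entry for 26 of the 35 members. The core TGACNNNGC, read on both strands, was found in 7 of these 26 (26.9%), against 13.3% of all 35116 promoters. The 7 genes were GCLM, TXNRD1, GPX2, GSTP1, GSTA4, GSTO1 and ME1. The 9 members without an entry were HMOX1, SLC7A11, FTH1, PRDX1, PRDX6, GSR, GSS, MGST2 and SOD1. Elements outside the searched bases were not looked for, so a member not listed may still have one. The match farthest upstream in each of 5 of them is shown with the core in capitals, on the strand where it reads as the motif. These 5 include the member with the highest estimate, GSTA4 (log2 change 0.95). The other genes with the core all had estimates below 0. These were −0.37 for GCLM, −0.49 for TXNRD1, −0.11 for GPX2, −0.18 for GSTP1, −0.32 for GSTO1 and −0.12 for ME1.
GSTA4, chr6:52995275-52995303, minus strand: ccgggaccgcTGACCTGGCgctttgtgcg
GCLM, chr1:93909446-93909474, plus strand: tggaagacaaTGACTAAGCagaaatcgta
TXNRD1, chr12:104215670-104215698, plus strand: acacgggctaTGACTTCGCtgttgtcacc
GPX2, chr14:64942849-64942877, plus strand: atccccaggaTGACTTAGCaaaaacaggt
GSTP1, chr11:67583736-67583764, plus strand: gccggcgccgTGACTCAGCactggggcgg
For each motif here a single entry was read per member. The share of all promoters counts every entry, whether or not its gene was tested, so the shares are not strictly alike. A match is a description of letters and not evidence of binding. The AP-1 motif TGANTCA, which can overlap this core and does so in GSTP1 and ME1, was in 3 of the 26 (GSTP1, OSGIN1 and ME1), against 7.71% of all promoters. The hypoxia response cores ACGTG and GCGTG were in 8 and 14 of the 26 members' promoters (30.8% and 53.8%), against 21.4% and 36.5% of all. FTL, PRDX2, GPX1 and GPX4 held both, with log2 changes of −0.66, −0.27, 0.065 and −0.022. Whether these cores bear on the mRNA levels was not tested. For FTL, the 250 bases before the start (chr19:48965059-48965308, plus strand) are printed with these cores in capitals on either strand.
FTL: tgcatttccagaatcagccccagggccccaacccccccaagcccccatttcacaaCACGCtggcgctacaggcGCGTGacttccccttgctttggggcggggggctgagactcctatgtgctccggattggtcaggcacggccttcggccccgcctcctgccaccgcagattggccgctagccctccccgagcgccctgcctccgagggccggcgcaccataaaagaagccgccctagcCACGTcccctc

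Library depth, recovered from the RPKM values, was between 38068729 and 65326907 reads, and no member had fewer than 107 reads in any library. HIF1A held 95.2, 51.4, 89.8 and 122 RPKM in shCtrl 1 to 4 and 27.6, 19.0, 54.8 and 45.0 RPKM in HIF1A-KD 1 to 4. It was lower in HIF1A-KD at each number, although HIF1A-KD 3 lay above shCtrl 2 (log2 change −1.34, limma adjusted p = 0.319 unpaired and 0.0253 with the library number as a block, here called the paired fit; two-sided exact permutation p = 0.0571, where 0.0286 is the smallest possible). The paired call for HIF1A was lost without shCtrl 1 or 2 (adjusted p = 0.109 and 0.184) or HIF1A-KD 1, 2 or 4 (0.108, 0.188 and 0.0521). All 10 squamous epithelial markers, such as KRT5, KRT14 and TP63, had at least 1 RPKM in every library. Of 7 fibroblast markers 6 were below 0.5 RPKM in all libraries, and COL1A1 made up nearly all of the list's sum (21.2 to 27.7 RPKM in the control line against 14.1 to 19.2). The leukocyte markers PTPRC and CD3E were listed at 0 throughout, and that list's sum, mostly CD68, was 33.5 to 117 RPKM in the control line against 25.1 to 87.7. Among endothelial markers PECAM1 and CDH5 were below 0.5 RPKM throughout, and the sum, mostly VWF, was 0.652 to 15.3 RPKM in the control line against 1.39 to 12.6. The summed level of 8 suprabasal markers was 2227 to 7158 RPKM in the control line and 10061 to 12710 RPKM with the knockdown, with no overlap, and that of 7 basal markers was 8367 to 12335 and 9827 to 12108 RPKM. Of the 8 suprabasal markers 1 passed the paired fit and 0 the unpaired fit, where 1.83% and 0.042% of all tested genes did. The sum need not stand for each marker. The difference in the summed suprabasal level stands beside every difference given below, and its part in them was not tested. In such bulk RNA, fewer cells of a type and less RNA per cell cannot be told apart.

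The members spanned a wide range of transcript levels. FTH1 was the highest, with a mean of 4352 RPKM over the 8 libraries, which ranked 14 among the 11899 tested genes. FTL (1024 RPKM), GSTP1 (636 RPKM) and PRDX5 (406 RPKM) followed. At the other end were GSTM3 (1.93 RPKM) and GCLM (1.17 RPKM), and 7 members averaged under 10 RPKM in both groups. The steadiest member across libraries was GPX4, a selenoprotein that reduces lipid peroxides, whose highest library was 1.39 times its lowest. The cystine transporter gene SLC7A11 spread 15.2-fold and HMOX1 13.5-fold between their lowest and highest libraries.

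**Figure D1:**
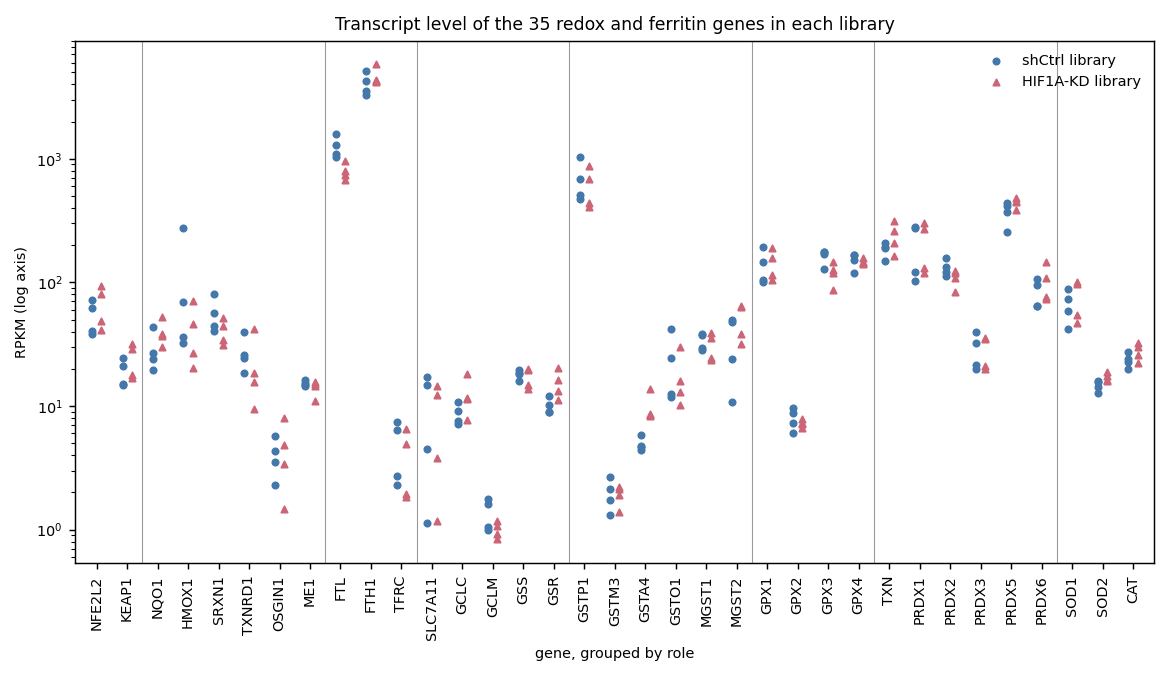
Transcript level in RPKM (log axis) of each of the 35 genes, grouped by role along the horizontal axis, with 1 point per library (blue circles shCtrl, red triangles HIF1A-KD, 4 each). FTH1 and FTL lie at the top, GSTM3 and GCLM at the bottom, and the groups are apart for FTL and GSTA4.

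Over the whole group, differences between the lines pointed both ways. Estimates were above 0 for 16 members and below 0 for 19, with a median log2 change of −0.015 against 0.064 over all tested genes, of which 58.7% were above 0. No member reached an absolute log2 change of 1, which 4.77% of tested genes did, and the range ran from −0.92 for HMOX1 to 0.95 for GSTA4. The median absolute log2 change was 0.274 for the members and 0.206 for all tested genes. In the unpaired limma test 0 of 35 members passed an adjusted p of 0.05, where 0.042% of all tested genes did. By unadjusted p under 0.05 there were 4 (FTL, GPX3, GSR and GSTA4; 7.8% of tested genes), and limma-voom on recovered reads also called 0 (0.0254% of tested genes). In the paired fit 1 of 35 passed, FTL, where 1.83% of all tested genes did (1.09% lower and 0.74% higher). One call among 35 is near that background. At an unadjusted p under 0.05 the paired fit had 14 of 35, where 19.6% of all tested genes did. At the same numbers, 10 members were higher in HIF1A-KD in all 4 pairs and 7 were lower in all 4, together 17 of 35, where the share among all tested genes was 29.3%. The authors' deposited table, a comparison of the same 2 groups and so no independent evidence, lists 7 of the 35 at an adjusted p under 0.05, with 9.02% of its genes so listed. They are NQO1, GSTA4 and MGST2 as higher, and FTL, HMOX1, SRXN1 and GPX3 as lower.

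**Figure D2:**
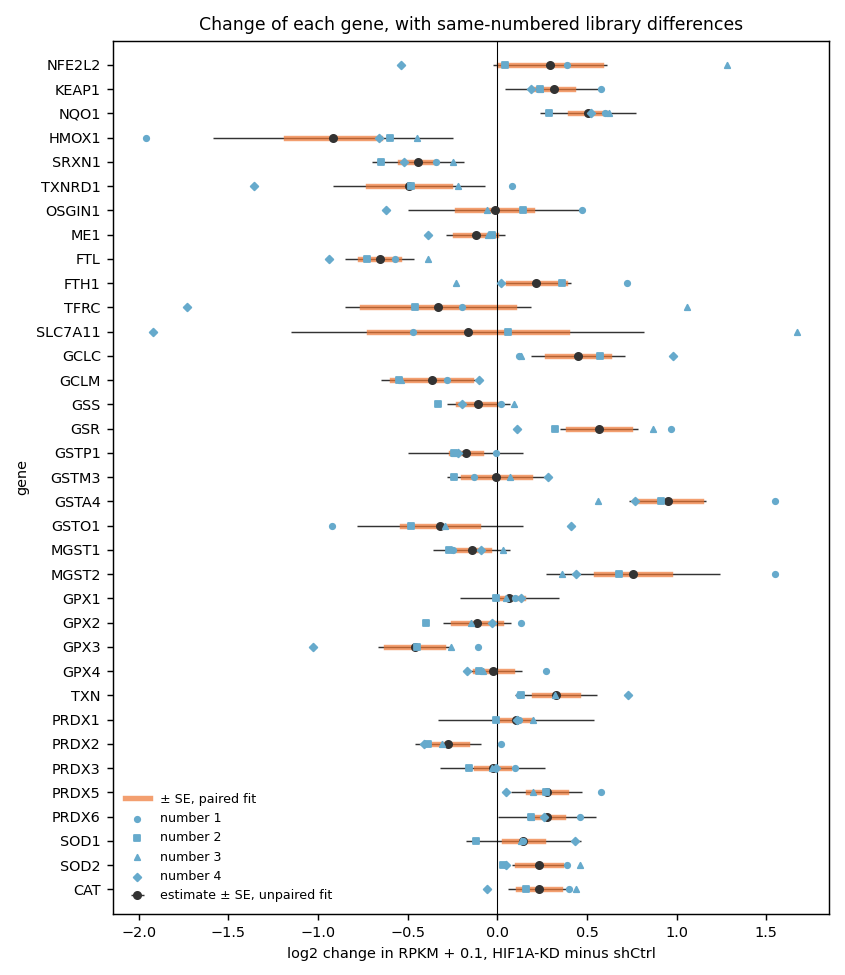
Log2 change in RPKM + 0.1 (HIF1A-KD minus shCtrl) for each gene, as the estimate with its standard error in the unpaired fit (black) and the paired fit (orange), and as the difference between libraries of the same number (blue symbols). FTL, SRXN1, HMOX1 and GPX3 lie left of 0 at every number, and NQO1, GSR, GSTA4 and MGST2 lie right of it.

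Ferritin light chain mRNA fell in HIF1A-KD in the paired fit, and heavy chain mRNA did not pass either fit. FTL (chromosome 19, 49468566 to 49470136, plus strand, hg19) held 1096, 1596, 1042 and 1289 RPKM in shCtrl 1 to 4 and 736, 965, 793 and 674 RPKM in HIF1A-KD 1 to 4. The groups did not overlap, with HIF1A-KD lower, as for 2.13% of all tested genes. In either direction this held for 3 of the 35 members and 5.4% of all tested genes. The mean was 1255 ± 251 RPKM in shCtrl against 792 ± 125 RPKM (SD, n = 4 each), a log2 change of −0.66 (SE 0.19, limma adjusted p = 0.348) that passed only in the paired fit (SE 0.11, adjusted p = 0.0459; lower in 4 of 4 pairs). Libraries 1 and 2 alone gave −0.65 and libraries 3 and 4 alone −0.66. The paired call depended on which libraries were kept. It was lost without shCtrl 1, 2 or 4 (adjusted p = 0.19, 0.26 and 0.0703) or HIF1A-KD 1, 2 or 4 (0.186, 0.255 and 0.0737), and was kept without shCtrl 3 or HIF1A-KD 3 (0.0416 and 0.0414). In the paired fit, leaving out a library also takes its same-numbered partner out of the estimate. The FTL estimate ran from −0.745 to −0.564 in these 8 fits. They called 1 to 239 of all genes, against 218 with every library kept. The authors' deposited table gives FTL a moderated log2 change of −0.71 (adjusted p = 5.32e-09).

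FTH1 (chromosome 11, 61731757 to 61735132, minus strand, hg19), whose product oxidises iron as it enters the shell, held 3529, 3288, 5108 and 4234 RPKM in shCtrl 1 to 4 and 5794, 4208, 4361 and 4292 RPKM in HIF1A-KD 1 to 4. The groups overlapped, and HIF1A-KD 1 was above the other HIF1A-KD libraries. Its log2 change was 0.22 (SE 0.19, limma adjusted p = 0.913), at 0.54 in libraries 1 and 2 and −0.10 in libraries 3 and 4. The ratio of FTH1 to FTL, which does not depend on the scaling between libraries, was 3.22, 2.06, 4.90 and 3.28 in shCtrl 1 to 4 and 7.87, 4.36, 5.50 and 6.37 in HIF1A-KD 1 to 4. It was higher in HIF1A-KD at each number, though HIF1A-KD 2 lay below shCtrl 3 (log2 change 0.87, two-sided exact permutation p = 0.0571, smallest possible 0.0286; this ratio was chosen after its values were seen). The sum of both chains was 5295 ± 683 RPKM in the control line and 5456 ± 722 RPKM with the knockdown (SD, n = 4 each), a difference smaller than the spread. GENCODE 29 lists 16 pseudogenes named after FTL and 25 after FTH1, so both levels could have been affected by how the authors' counting treated shared reads. The table's span of FTH1 also overlaps BEST1 on the other strand, which had 0.143 to 0.574 RPKM in the 8 libraries.

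TFRC, the transferrin receptor gene, held 7.47, 2.72, 2.30 and 6.34 RPKM in shCtrl 1 to 4 and 6.49, 1.95, 4.90 and 1.85 RPKM in HIF1A-KD 1 to 4. Both groups held high and low libraries, and they overlapped (log2 change −0.33, SE 0.52, limma adjusted p = 0.978).

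**Figure D3:**
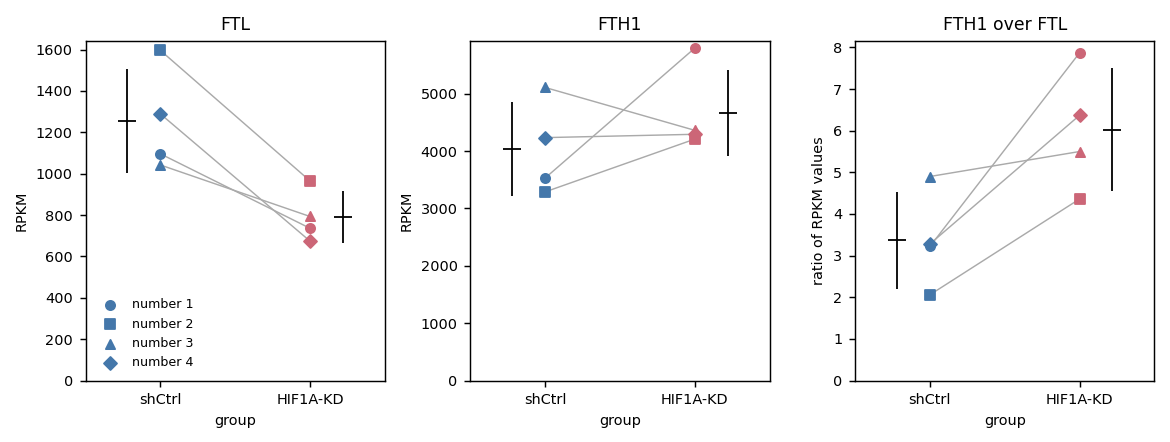
FTL and FTH1 in RPKM and their ratio in each library, with shCtrl on the left and HIF1A-KD on the right of each panel, grey lines joining libraries of the same number, and black bars giving the mean ± SD of 4 libraries. FTL is lower in all 4 HIF1A-KD libraries than in any shCtrl library, FTH1 overlaps, and the ratio rises along each line.

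The regulators NFE2L2 and KEAP1 did not pass the test. NFE2L2 held 61.9, 40.4, 38.2 and 71.4 RPKM in shCtrl 1 to 4 and 81.2, 41.5, 93.2 and 49.1 RPKM in HIF1A-KD 1 to 4. HIF1A-KD 1 and 3 lay above every shCtrl library and HIF1A-KD 2 and 4 within their range (log2 change 0.29, SE 0.32, limma adjusted p = 0.947). KEAP1, the adaptor that presents NRF2 for degradation, held 21.1, 24.3, 15.1 and 14.8 RPKM against 31.8, 28.7, 17.8 and 16.9 RPKM. It was higher in HIF1A-KD at each number, by a log2 change of 0.31 (SE 0.27, adjusted p = 0.906), which is less than its difference between libraries 1 and 2 and libraries 3 and 4.

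Established NRF2 target enzymes pointed in different directions. NQO1, which reduces quinones, held 19.6, 43.2, 23.9 and 26.8 RPKM in shCtrl 1 to 4 and 29.8, 52.7, 36.6 and 38.4 RPKM in HIF1A-KD 1 to 4. Both libraries numbered 2 were the highest of their group, and the groups overlapped because shCtrl 2 was high. HIF1A-KD was higher at each number (log2 0.60, 0.29, 0.62 and 0.52; log2 change overall 0.50, SE 0.27, limma adjusted p = 0.751). SRXN1, sulfiredoxin, which repairs over-oxidised peroxiredoxins, went the other way with 56.1, 80.9, 40.7 and 44.7 RPKM against 44.2, 51.4, 34.2 and 31.2 RPKM. It was lower in HIF1A-KD at each number (log2 change −0.44, SE 0.26, adjusted p = 0.778), and passed in the fit paired as numbered only after median-of-ratios scaling (adjusted p = 0.0484).

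HMOX1 (chromosome 22, 35777060 to 35790207, plus strand, hg19), heme oxygenase 1, which breaks down heme and frees its iron, had the lowest estimate of all members. It held 273, 69.6, 36.4 and 32.1 RPKM in shCtrl 1 to 4 and 70.0, 46.0, 26.6 and 20.3 RPKM in HIF1A-KD 1 to 4. The value of shCtrl 1 stood far above the rest, and the order of the numbers was the same in both groups. The log2 change of −0.92 (SE 0.67, limma adjusted p = 0.853) comprised −1.96 at number 1 and −0.60, −0.45 and −0.66 at numbers 2 to 4. The shCtrl mean was 103 RPKM against 40.7 RPKM with the knockdown, and these were 46.0 and 31.0 RPKM without the libraries numbered 1.

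TXNRD1, thioredoxin reductase 1, held 39.6, 25.7, 18.3 and 24.4 RPKM in shCtrl 1 to 4 and 41.8, 18.4, 15.7 and 9.46 RPKM in HIF1A-KD 1 to 4, with overlap (log2 change −0.49, SE 0.42, limma adjusted p = 0.905). OSGIN1, an oxidative stress induced growth inhibitor, had a log2 change of −0.015 and spanned 1.46 to 7.98 RPKM. ME1, the cytosolic malic enzyme that makes NADPH, spanned 11.0 to 16.1 RPKM over the 8 libraries (log2 change −0.12). Of the 6 target enzymes 1 had an estimate above 0 and 5 below, and none of the 6 passed either fit.

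**Figure D4:**
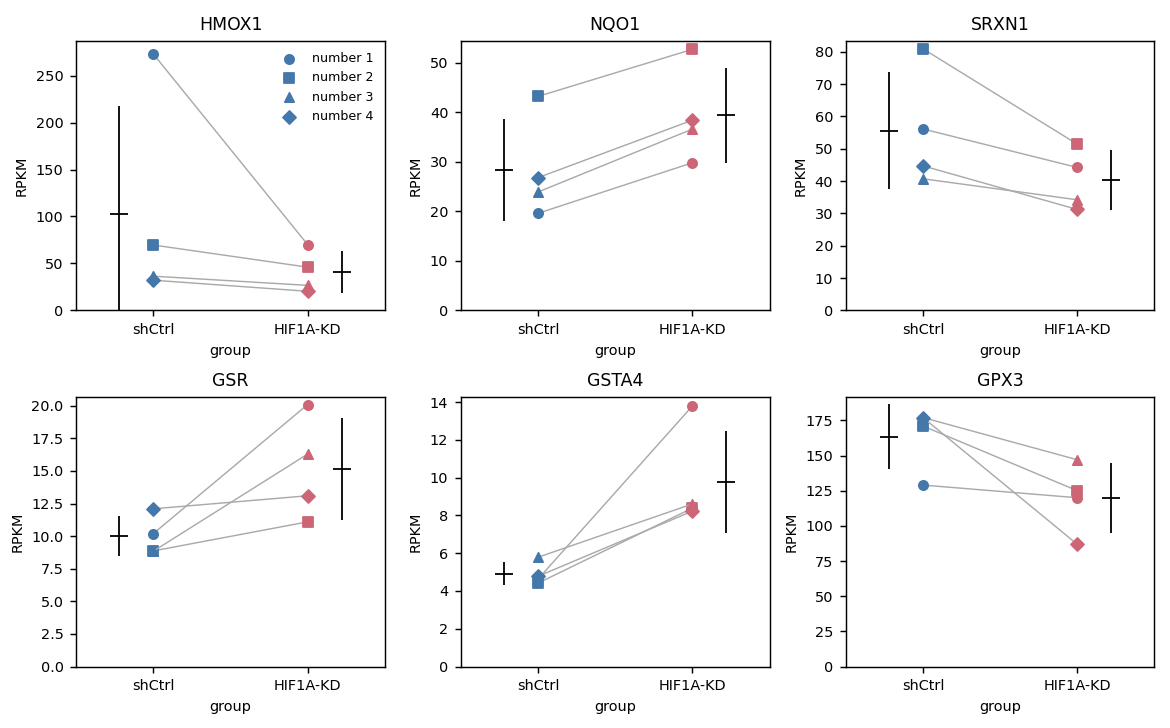
RPKM of HMOX1, NQO1, SRXN1, GSR, GSTA4 and GPX3 in each library, with shCtrl on the left and HIF1A-KD on the right, grey lines joining the same number, and black bars giving the mean ± SD of 4 libraries (the HMOX1 shCtrl bar runs below 0 and is cut there). HMOX1 has its highest value in shCtrl 1, NQO1 is higher in HIF1A-KD along each line, and GSTA4 is apart in all 4 HIF1A-KD libraries.

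Genes that supply reduced glutathione also split. GCLC and GCLM encode the catalytic and the modifier subunit of glutamate-cysteine ligase, the first step of synthesis. GCLC held 7.12, 7.56, 10.7 and 9.10 RPKM in shCtrl 1 to 4 and 7.73, 11.3, 11.7 and 18.0 RPKM in HIF1A-KD 1 to 4, higher at each number (log2 change 0.45, SE 0.26, limma adjusted p = 0.783). GCLM, at the foot of the level range, held 1.04, 1.60, 1.75 and 0.987 RPKM against 0.841, 1.06, 1.17 and 0.914 RPKM, lower at each number (log2 change −0.37, SE 0.28, adjusted p = 0.867). The ratio of GCLC to GCLM was 6.72 ± 1.88 in shCtrl and 12.4 ± 4.92 in HIF1A-KD (SD, n = 4 each), with a two-sided exact permutation p of 0.0571 (smallest possible 0.0286), and this ratio too was chosen after its values were seen. One shCtrl library, number 4 at 9.22, overlapped with HIF1A-KD 1 at 9.18.

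GSR, glutathione reductase, which regenerates reduced glutathione, held 10.2, 8.87, 8.85 and 12.1 RPKM in shCtrl 1 to 4 and 20.1, 11.1, 16.3 and 13.1 RPKM in HIF1A-KD 1 to 4. Only HIF1A-KD 2 fell within the shCtrl range (log2 change 0.57, SE 0.22, limma adjusted p = 0.536; higher in 4 of 4 pairs). GSS, which completes glutathione synthesis, spanned 13.8 to 20.0 RPKM over the 8 libraries (log2 change −0.11). SLC7A11, which imports cystine for glutathione, held 17.1, 1.13, 4.50 and 14.7 RPKM against 12.3, 1.17, 14.6 and 3.80 RPKM. Both libraries numbered 2 were the lowest of their group, and the groups overlapped fully (log2 change −0.17, SE 0.99, adjusted p = 0.998).

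Among the glutathione transferases, which attach glutathione to reactive compounds, GSTA4 stood out. GSTA4 (chromosome 6, 52842746 to 52860178, minus strand, hg19), known for clearing the lipid peroxidation product 4-hydroxynonenal, held 4.64, 4.42, 5.79 and 4.78 RPKM in shCtrl 1 to 4 and 13.8, 8.39, 8.61 and 8.23 RPKM in HIF1A-KD 1 to 4. The groups did not overlap, with HIF1A-KD higher, as for 3.27% of all tested genes and 2 of the 35 members. The log2 change of 0.95 (SE 0.21, limma adjusted p = 0.199) was the highest of all members and did not pass the test in the unpaired or the paired fit (adjusted p = 0.0621 in the latter), though the authors' deposited table lists it with a moderated log2 change of 0.76 (adjusted p = 0.00535). MGST2, a microsomal transferase, held 10.7, 24.0, 49.2 and 47.8 RPKM against 31.5, 38.5, 63.0 and 64.8 RPKM. It was higher at each number, and its libraries 3 and 4 were above 1 and 2 in both groups (log2 change 0.76, SE 0.48, adjusted p = 0.813). The table's span of MGST2 overlaps MAML3 on the other strand (2.60 to 8.34 RPKM), and no source used here says whether reads were counted by strand.

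GSTP1, the most abundant transferase, held 688, 1024, 513 and 471 RPKM in shCtrl 1 to 4 and 681, 868, 435 and 405 RPKM in HIF1A-KD 1 to 4 (log2 change −0.18, SE 0.32, limma adjusted p = 0.985). GSTO1 (log2 change −0.32), MGST1 (−0.14) and GSTM3 (−0.006) did not pass either, with adjusted p from 0.974 to 1.0. Of the 6 transferases 2 had estimates above 0 and 4 below.

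The glutathione peroxidases, which use glutathione to reduce peroxides, differed most in GPX3, the secreted member. GPX3 held 129, 171, 177 and 177 RPKM in shCtrl 1 to 4 and 120, 125, 147 and 86.9 RPKM in HIF1A-KD 1 to 4. It was lower at each number, while the low shCtrl 1 overlapped with HIF1A-KD 3 (log2 change −0.46, SE 0.20, limma adjusted p = 0.635). The cytosolic GPX1 (136 ± 43.4 and 141 ± 40.5 RPKM) and GPX4 (150 ± 22.1 and 147 ± 6.29 RPKM; SD, n = 4 each) differed by less than the SD of either group. The epithelial GPX2 (7.88 ± 1.56 and 7.19 ± 0.50 RPKM) differed by less than the SD of shCtrl but not that of HIF1A-KD. GPX1 was the only member whose estimate changed sign under median-of-ratios scaling (0.065 to −0.008), a scaling that moved the median of all tested genes by −0.071.

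Thioredoxin, a small protein that reduces disulfides, and the peroxiredoxins, which break down peroxides, had no member that passed either fit. TXN held 149, 192, 210 and 190 RPKM in shCtrl 1 to 4 and 162, 210, 262 and 315 RPKM in HIF1A-KD 1 to 4, higher at each number with overlap (log2 change 0.33, SE 0.23, limma adjusted p = 0.836). The mitochondrial and peroxisomal PRDX5 (371 ± 80.6 and 442 ± 40.6 RPKM) and PRDX6 (82.5 ± 21.4 and 101 ± 33.7 RPKM) were likewise higher at each number, with log2 changes of 0.28 and 0.27. The log2 changes of PRDX1, PRDX2 and the mitochondrial PRDX3 were 0.10, −0.27 and −0.026. GENCODE 29 names 7 pseudogenes after TXN and 4 each after PRDX2 and PRDX3, so these levels too are uncertain.

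Superoxide dismutases and catalase had small estimates above 0. SOD2, the mitochondrial dismutase, held 14.3, 16.0, 12.7 and 15.5 RPKM in shCtrl 1 to 4 and 18.7, 16.3, 17.4 and 16.0 RPKM in HIF1A-KD 1 to 4. Its groups did not overlap, but the highest shCtrl and the lowest HIF1A-KD value both round to 16.0 RPKM (log2 change 0.23, SE 0.15, limma adjusted p = 0.822). CAT, catalase, held 23.4 ± 2.95 and 27.6 ± 4.34 RPKM, and the cytosolic SOD1 held 65.9 ± 19.9 and 74.4 ± 27.8 RPKM (SD, n = 4 each). Neither passed either fit.

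Libraries numbered 1 and 2 lay apart from those numbered 3 and 4 for some members, about as often as for all tested genes. The labels give this split no meaning, and it is described here without a test. Libraries 1 and 2 had 16580 to 17205 genes above 0 RPKM, and libraries 3 and 4 had 13799 to 15347. The part of this difference in the member values was not tested. The 4 libraries numbered 1 and 2 did not overlap with the 4 numbered 3 and 4 for 11 of 35 members (31.4%). This was so for 27.9% of all tested genes, so the count is near the background. PRDX1, a cytosolic peroxiredoxin, held 282 ± 15.1 RPKM in libraries 1 and 2 and 119 ± 11.6 RPKM in libraries 3 and 4 (SD, n = 4 each, both lines together), beside log2 differences between the lines of 0.12, −0.01, 0.20 and 0.11 at numbers 1 to 4. KEAP1, HMOX1, PRDX3, PRDX6, GPX1, GSTP1 and OSGIN1 were also higher in libraries 1 and 2, by 1.63 times for GPX1 to 3.98 times for HMOX1. Without shCtrl 1 the HMOX1 ratio was 2.15. MGST1, MGST2 and SOD1 were higher in libraries 3 and 4, by 1.42, 2.15 and 1.78 times.

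A further arrangement of the libraries crossed the numbers. NFE2L2, SLC7A11, TFRC and GSR each had shCtrl 1 and 4 as the highest libraries of the control line and HIF1A-KD 1 and 3 as the highest of the knockdown line. These were 4 of the 35 members, where 9.76% of all tested genes had the same order, so the count is near the background. SLC7A11 in those 4 libraries lay between 12.3 and 17.1 RPKM, and in the other 4 between 1.13 and 4.50 RPKM. For these genes the same-numbered differences at 3 and 4 had opposite signs or unequal sizes, such as 1.67 and −1.92 (log2) for SLC7A11 and 1.06 and −1.73 for TFRC.

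**Figure D5:**
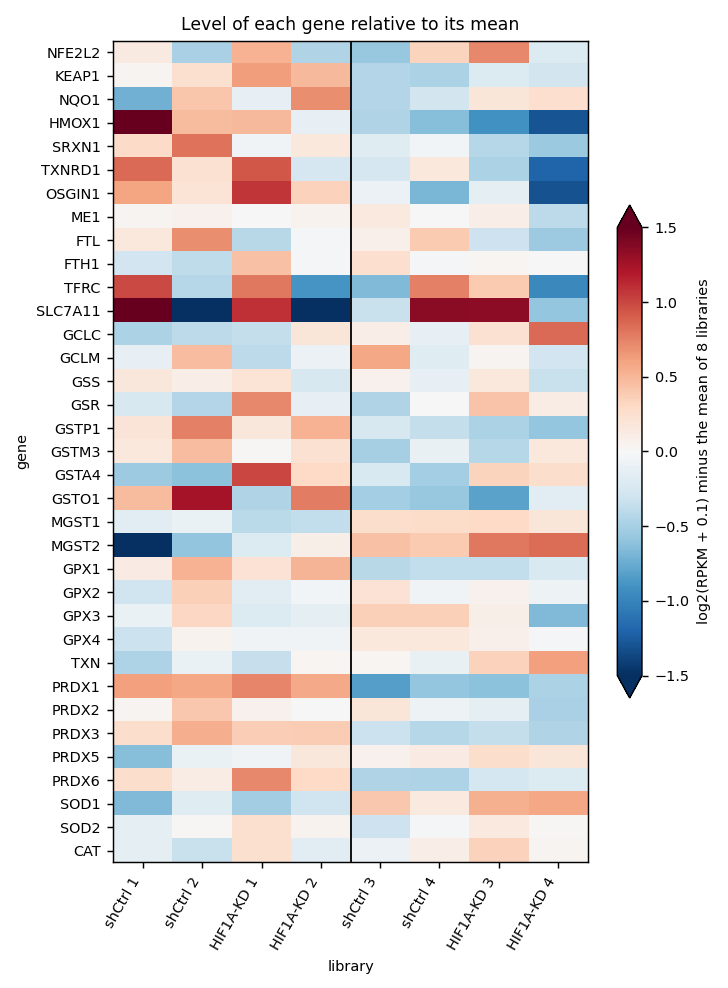
Log2(RPKM + 0.1) of each gene minus its mean over the 8 libraries (colour, from −1.5 in blue to 1.5 in red, with more extreme values at the end colours), with libraries numbered 1 and 2 left of the line and 3 and 4 right of it. PRDX1, PRDX3, GPX1 and GSTP1 change colour at the line, MGST1, MGST2 and SOD1 change the other way, and SLC7A11 and TFRC are red in shCtrl 1, shCtrl 4, HIF1A-KD 1 and HIF1A-KD 3.

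Other genes of the same pathways also had few calls. GGT1 (1.36, 0.231 to 2.24 RPKM) and GLRX (−1.39, 5.15 to 163 RPKM) had an absolute log2 change of at least 1, as 4.77% of tested genes did. They are examples named after their values were seen, and such genes are not counted here. Neither passed the unpaired or the paired fit. Of 93 further genes listed, 81 could be tested, and 0 passed the unpaired limma test (0.042% of all tested genes), with 7 at an unadjusted p under 0.05 (7.8% of all tested genes) and 0 by limma-voom (0.0254%). In the paired fit 1 rose, IDH1, and 0 fell, where 0.74% and 1.09% of all tested genes did. The median log2 change was 0.035, with 45 of 81 estimates above 0. IDH1, the cytosolic isocitrate dehydrogenase that makes NADPH, held 44.5, 59.7, 52.9 and 53.1 RPKM in shCtrl 1 to 4 and 78.6, 83.2, 90.8 and 76.3 RPKM in HIF1A-KD 1 to 4. The groups did not overlap (log2 change 0.65, SE 0.15, limma adjusted p = 0.222 unpaired and 0.0365 paired). With HIF1A-KD higher this was so for 3.27% of all tested genes, and among the further genes also for others such as GGT1, EPHX1 and MSRB3. Of the 8 paired fits that leave out 1 library, IDH1 passed only without shCtrl 4 (adjusted p = 0.0486). The IDH1 call was lost without shCtrl 1, 2 or 3 (0.179, 0.187 and 0.0691) or HIF1A-KD 1, 2, 3 or 4 (0.178, 0.19, 0.0697 and 0.0508). By group, the 11 tested NRF2 regulators (small MAF proteins, BACH1, CUL3 and others) had a median of 0.11, the 25 further NRF2 targets 0.036, the 20 further glutathione genes 0.034, the 13 further thioredoxin and peroxide genes −0.008 and the 12 further iron genes −0.057.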

How the data were processed

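RNA libraries from 8 EPC2-hTERT samples (4 shCtrl, 4 HIF1A-KD) were grouped by their titles. The submitters' processing notes name the aligner TopHat2 2.0.13 and the counter HTSeq 0.6.1 among their tools, and both hg19 and hg38. Coordinates in the table are taken as hg19, since 251 genes lie on haplotype contigs named as in hg19 and 0 of 35 member starts equal those of GRCh38. The deposited table, although named for raw counts, holds RPKM made by the authors. RPKM times gene length gave whole multiples of 1 step per library (100.0% of values within 0.01 read), which implies the read totals. The design had named a count test in case the file held counts. As it holds RPKM, limma 3.58.1 (R 4.3.3) was run on log2(RPKM + 0.1), with trend and robust moderation, two-sided, over the 11899 genes that reached 0.5 RPKM in 4 or more libraries, adjusted by Benjamini and Hochberg. Fold changes on this scale understate those of low genes. The same code was tested on simulated data. The members, lists and tests were chosen with earlier results of these data known. All members, HIF1A and any gene of the further pathway list called in the unpaired or the paired fit are named.

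Same-numbered libraries deviated together from their group means (correlations across genes 0.754, 0.73, 0.252 and 0.257 for numbers 1 to 4). The number was used as a block in the paired fit. The labels do not state this pairing. It is uncertain for numbers 3 and 4, since shCtrl 4 correlated at 0.613 with HIF1A-KD 3 and shCtrl 3 at 0.463 with HIF1A-KD 4.

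The authors' second deposited table holds a moderated fold ratio, its log2 value and p-values per gene, and no header names the software or which line was the numerator. Its signs matched HIF1A-KD minus shCtrl in 96.9% of 13469 genes, which is how its direction was read. Alternatives were other pseudocounts, filters and scaling, limma-voom, the block, the split of libraries 1 and 2 from 3 and 4, and leaving out each library.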

Additional observations from a re-analysis of the deposited data

Results flagged for a closer look

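Of 72 groups of 4 libraries (the 35 members and HIF1A in each line), 4 held a library far from the other 3 by Dixon's criterion. Chance alone flags about 1 group in 20, and 4 of 72 is near that share. HMOX1 was high in shCtrl 1, at 273 RPKM against 69.6 RPKM in the next library. GPX3 was low in the same library, at 129 RPKM against 171 RPKM. In HIF1A-KD 1, FTH1 was high at 5794 RPKM against 4361 RPKM, and GSTA4 was high at 13.8 RPKM against 8.61 RPKM.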

How the results depend on the processing

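The library number as a replicate block took the count of called members from 0 to 1 (FTL), that of all genes from 5 to 218 and that of the further pathway genes from 0 to 1 (IDH1), and HIF1A, at a log2 change of −1.342 in both fits, passed with it. With the block and median-of-ratios scaling, log2(RPKM + 1) or limma-voom, the counts were 2, 1 and 1 for members, 256, 231 and 334 for all genes and 1, 1 and 2 for the pathway genes, and HIF1A passed at −1.415, −1.317 and −1.343. A block with HIF1A-KD 3 and 4 crossed, chosen after the correlations were seen and so no independent support, called 5 members (FTL and SRXN1 lower, NQO1, GSR and GSTA4 higher; 11.2% of all tested genes), 1327 genes and 14 pathway genes, with HIF1A at −1.342. Without the block, members and pathway genes called stayed at 0 in all alternatives, while all genes called were 3 with log2(RPKM + 1), log2(RPKM + 0.01) or limma-voom, 1 with no filter, 11 at 1 RPKM in all 8, 8 with median-of-ratios scaling, 102 with the split as a term and 0 in libraries 1 and 2 only. Leaving out 1 library at a time gave 0 to 239 genes over both fits (at most 3 unpaired), 0 to 1 members, 0 to 1 pathway genes (IDH1 in 1 fit, AKR1B1 lower in others; AKR1B1 and MSRB3, the pathway gene called beside IDH1 by limma-voom with the block, are named after their values were seen), and HIF1A from −1.587 to −1.067. The FTL adjusted p ran from 0.0955 to 0.927 unpaired and from 0.0294 to 0.26 paired as numbered. Over 30 alternatives 22 members never changed sign. The other 13 had estimates of at most 0.333 in size and did not pass. Reversed estimates were −0.104 for FTH1, 0.175 for GSTM3 and 0.058 for GSTO1 in libraries 3 and 4 only, 0.084 for GPX4 and 0.308 for OSGIN1 in libraries 1 and 2 only, −0.008 for GPX1 with median-of-ratios scaling in both fits, 0.014 for GSTM3 and 0.031 for OSGIN1 with limma-voom (0.115 for OSGIN1 with the block), and 0.017 for OSGIN1 with log2(RPKM + 1) in both fits. Over the fits that leave out 1 library, the estimates that reversed in any ran from −0.038 to 0.57 for NFE2L2, −0.943 to 0.535 for SLC7A11, −0.796 to 0.132 for TFRC, −0.152 to 0.328 for PRDX1, −0.175 to 0.152 for PRDX3, −0.096 to 0.252 for GPX1, −0.133 to 0.028 for GPX4, −0.381 to 0.048 for GSTP1, −0.171 to 0.149 for GSTM3, −0.629 to 0.042 for GSTO1, −0.052 to 0.343 for SOD1 and −0.374 to 0.416 for OSGIN1. The cause of these changes was not tested. GCLM was not tested at 1 RPKM in all 8 libraries.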
